A study of Mus musculus with 16 samples.

Results

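Of 27179 genes counted in 15 mouse mammary tumors, 9 are described here because they mark B lymphocytes, the naive and follicular B cells of lymphoid tissue, and the high endothelial venule, the lymph node vessel through which lymphocytes leave the blood. They are Ighm, Ighd and Igkc (antibody constant regions), Cd79a and Cd79b (the signalling partners of surface antibody), Ms4a1 (CD20), Cr2 (CD21), Fcer2a (CD23) and Glycam1. They were chosen by name, with earlier results of these tumors known, and all 9 have a row in the count table.

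The tumors grew orthotopically in BALB/cJ females aged 8 to 10 weeks from F2 transplants of family F, a mammary tumor family null for Trp53, and treatment began at a tumor volume of 65 to 100 mm3. Each of 5 groups had 3 tumors, frozen 7 days after treatment. TGFbi tumors came from mice given IPW-5371, a small molecule inhibitor of TGFβ signalling, daily at 20 mg/kg. RT tumors received 10 Gy of focal radiation. TGFbi+RT tumors received both, and TGFbi+RT+anti-PD-L1 tumors, called the triple combination below, also received an antibody to PD-L1 at 10 mg/kg once a week. Sham tumors came from mice given control IgG at 25 mg/kg. All groups share the family, the Trp53 null genotype of the tumor and the BALB/cJ host, an inbred strain that keeps its own lymphocytes, and 1 tumor family is all that is described.

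A mature naive B cell carries IgM and IgD together on its surface, made by alternative splicing of 1 long transcript, each paired with a κ or λ light chain and held by the CD79A and CD79B proteins, which pass the antigen signal into the cell. CD21 binds complement fragments and lowers the threshold for that signal, CD23 is the low affinity receptor for IgE on follicular B cells, and CD20 is a membrane protein of B cells before the plasma cell stage. B cells enter a lymph node through high endothelial venules, whose cells make the sulphated mucin GlyCAM-1, and follow the chemokine CXCL13 into follicles. Glycam1 is also known as a gene of the lactating mammary gland, so its reading in mammary tissue has more than 1 known source.

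Promoters of 4 of the 9 genes (Cd79a, Cr2, Fcer2a and Glycam1) were in the RefSeq promoter table for build GRCm38.p6. They are printed because these genes, of B cells and of vessel cells, were highest in the same tumor. Each run is the 250 bases before an annotated start, 5′ to 3′ on the strand of the gene, with capitals marking GGAAGT or its reverse complement, the core recognised by ETS family factors. Cd79a lies at chr7:24897247-24897496 (plus strand), Cr2 at chr1:195176720-195176969 (minus), Fcer2a, from the farthest upstream of its 3 listed starts, at chr8:3694175-3694424 (minus), and Glycam1 at chr15:103565082-103565331 (minus).
Cd79a: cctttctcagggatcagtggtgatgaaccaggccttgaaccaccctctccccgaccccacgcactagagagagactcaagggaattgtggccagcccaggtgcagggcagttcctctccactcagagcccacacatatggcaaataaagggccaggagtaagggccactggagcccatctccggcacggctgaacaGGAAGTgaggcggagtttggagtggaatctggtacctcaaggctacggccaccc
Cr2: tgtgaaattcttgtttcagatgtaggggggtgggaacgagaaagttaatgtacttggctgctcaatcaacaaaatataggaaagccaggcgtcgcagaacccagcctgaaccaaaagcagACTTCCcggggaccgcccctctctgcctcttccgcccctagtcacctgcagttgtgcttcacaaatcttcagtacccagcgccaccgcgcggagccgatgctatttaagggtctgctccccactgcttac
Fcer2a: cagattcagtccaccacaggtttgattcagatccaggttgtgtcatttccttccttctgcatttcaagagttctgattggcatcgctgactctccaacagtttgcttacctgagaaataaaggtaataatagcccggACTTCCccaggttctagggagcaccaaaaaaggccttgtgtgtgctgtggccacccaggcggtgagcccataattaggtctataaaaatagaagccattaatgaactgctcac
Glycam1: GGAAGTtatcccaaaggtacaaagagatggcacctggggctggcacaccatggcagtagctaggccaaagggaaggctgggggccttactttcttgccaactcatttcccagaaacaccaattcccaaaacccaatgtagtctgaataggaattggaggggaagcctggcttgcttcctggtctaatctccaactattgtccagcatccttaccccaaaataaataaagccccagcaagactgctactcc

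Searched on both strands, GGAAGT was present once in each printed promoter and absent from those of the other 2 listed Fcer2a starts, and 19.7% of all 32851 promoters of this length hold it. This motif was chosen after the sequences were seen. Of 2 other motifs, the octamer ATGCAAAT was in 1.6% of all promoters and in none of these, and the palindrome bound by EBF was in 0.779% and in none of these. The motifs overlap nowhere in the printed runs. A match is only a match of letters, and a search for exact letters misses any site that varies from them.

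The 16 libraries (15 tumors and 1 internal reference, which was left out of all comparisons) held 11002869 to 17184023 counts per tumor, with a median of 13302488. Levels are given as counts and as CPM, the count of a gene divided by the library total and its TMM factor (0.919 to 1.05) and scaled to 1000000. The tumors are separate samples by their labels. In bulk tumor RNA, fewer cells of a type and less RNA per cell cannot be told apart. Intervals and floors below cover counting error only. Epcam, an epithelial marker, had 1331 to 2887 counts in every tumor, with 2751 in triple combination replicate 1. That tumor stood apart from all others for the genes described here, so results that rest on it are given with and without it.

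All 9 genes had their highest level in triple combination replicate 1. Among 17854 genes with at least 30 counts over the tumors, 2.04% were highest there, and the share led by any 1 tumor ran from 1.97% to 17.4%. Because the 9 genes were chosen with earlier results of these tumors known, setting them beside that share is not a test. The 9 genes summed to 194 CPM in that tumor, followed by 59.6 CPM in triple combination replicate 2, 35.5 CPM in TGFbi+RT replicate 3 and 20.8 CPM in RT replicate 1, down to 1.47 CPM in Sham replicate 2. Without Ighm the sums were 130 CPM in triple combination replicate 1 and 9.39 CPM in replicate 2, and the third highest was RT replicate 1 with 8.79 CPM. The leading tumor held 32.9% of the summed CPM of Ighm and 34.9% of that of Cd79b, and 58.6% to 97.0% for the other 7 genes.

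**Figure D1:**
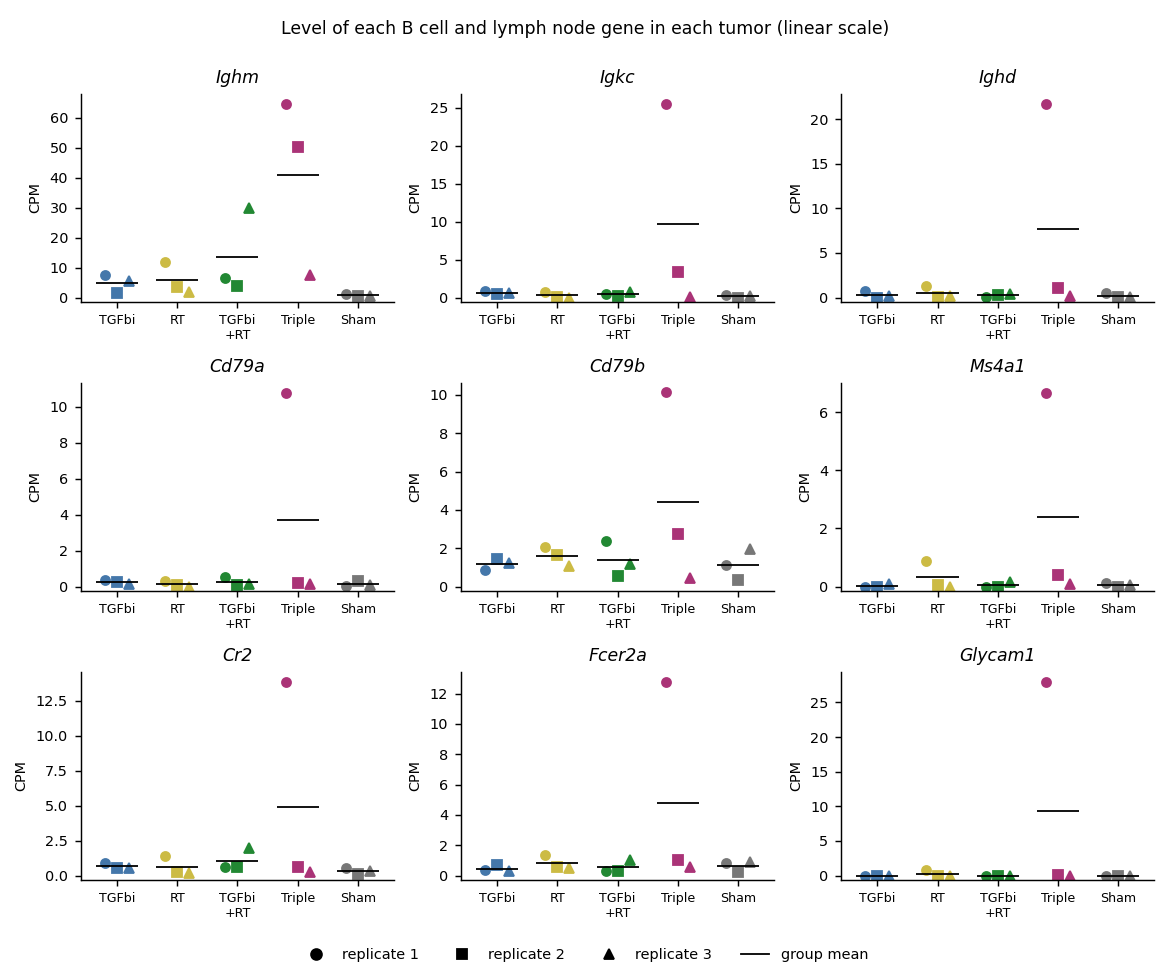
Level of each of the 9 genes in each of the 15 tumors, in CPM on a linear scale, with symbols for the replicates and a line at the mean of each group of 3. Triple combination replicate 1 is the highest point in every panel (64.7 CPM for Ighm, 28.0 CPM for Glycam1), and for Ighm replicate 2 comes near it at 50.2 CPM.

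Ighm encodes the μ heavy chain of IgM (Entrez 16019, 6 exons on chromosome 12 from 113418826 to 113422730, minus strand, GRCm38, as for all gene positions here). It had 7.47, 1.44 and 5.41 CPM in the 3 TGFbi tumors, 12.0, 3.53 and 1.90 CPM in the RT tumors, 6.62, 4.01 and 29.8 CPM in the TGFbi+RT tumors, and 64.7, 50.2 and 7.42 CPM in the triple combination tumors, against 1.31, 0.409 and 0.454 CPM in the Sham tumors. Every one of the 12 treated tumors (1.44 to 64.7 CPM, median 7.02) lay above every Sham tumor (0.409 to 1.31 CPM). Of 22688 genes with a count, 0.529% had all treated tumors above all Sham tumors. The μ chain was the only one of the 9 genes with this order.

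Ighd encodes the δ heavy chain of IgD, next to Ighm (Entrez 380797, 7 exons on chromosome 12 from 113407535 to 113416324, minus strand). Its counts were 8, 0 and 2 in TGFbi tumors, 21, 1 and 2 in RT tumors, 1, 3 and 5 in TGFbi+RT tumors, and 326, 15 and 2 in triple combination tumors, against 8, 1 and 1 in Sham tumors. Of the summed CPM of Ighd over the 15 tumors, 81.5% was in triple combination replicate 1, whose 21.7 CPM was 16.6 times the level of the second tumor, RT replicate 1 with 1.31 CPM. The triple combination tumors were on both sides of Sham replicate 1.

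Igkc encodes the κ light chain constant region (Entrez 16071, a single exon on chromosome 6 from 70726435 to 70726754, plus strand). It had 10, 6 and 7 counts in TGFbi tumors, 11, 2 and 0 in RT tumors, 6, 3 and 9 in TGFbi+RT tumors, and 383, 49 and 1 in triple combination tumors, against 5, 0 and 3 in Sham tumors. The highest tumor, triple combination replicate 1, was at 25.5 CPM, 7.66 times replicate 2 at 3.33 CPM. All TGFbi tumors (0.478 to 0.879 CPM) lay above all Sham tumors (0 to 0.298 CPM), on few counts. Across genes, per kilobase of exon, Igkc had the highest level of the 9 in triple combination replicate 1, with 79.7 CPM per kb, before Glycam1 with 44.8, Ighm with 43.4 and Ighd with 21.6 CPM per kb.

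Within a tumor, the proportions of these chains do not depend on library size. Ighd made up 23.4% of heavy chain constant region counts in triple combination replicate 1 (326 of 1394, 95% Wilson interval 21.2 to 25.7%), 1.83% in replicate 2 (15 of 820, 1.11 to 3.00%), 1.37% in TGFbi+RT replicate 3 (5 of 364, 0.588 to 3.18%) and 9.46% in RT replicate 1 (21 of 222, 6.27 to 14.0%). These are the 4 tumors with over 200 such counts. Of the other tumors, Sham replicate 1 had a like share of 25.0%, but on 8 of 32 counts (13.3 to 42.1%). Igkc made up 28.3% of Igkc plus Ighm counts in triple combination replicate 1 (383 of 1354, 26.0 to 30.7%). It made up 6.23% in replicate 2 (49 of 787, 4.74 to 8.14%), 2.51% in TGFbi+RT replicate 3 (9 of 359, 1.32 to 4.70%) and 5.42% in RT replicate 1 (11 of 203, 3.05 to 9.44%). On few counts, it was 25.0% in TGFbi replicate 2 (6 of 24), 18.5% in Sham replicate 1 (5 of 27) and 30.0% in Sham replicate 3 (3 of 10). All remaining tumors had at most 10.5%. So triple combination replicate 2 and TGFbi+RT replicate 3, next highest in Ighm, had little Ighd and little Igkc beside it.

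Class switched isotypes, counted as Ighg1, Ighg2b, Ighg2c, Ighg3, Igha and Ighe only, were a like share in both of the tumors with most antibody transcript. They took 6.96% of heavy chain counts in triple combination replicate 1 (97 of 1394, 5.74 to 8.42%) and 8.17% in replicate 2 (67 of 820, 6.49 to 10.3%), and the intervals overlap. The isotypes differed: Ighg1 had 75 counts and Igha 0 in replicate 1, while Ighg1 had 19 and Igha 40 in replicate 2. The 0 in replicate 1 allows a level of up to 3 counts. The κ share of light chain constant counts was 81.3% in replicate 1 (383 of 471, 77.6 to 84.6%) and 79.0% in replicate 2 (49 of 62, 67.4 to 87.3%).

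Variable segments, the rearranged ends of antibody genes, gave a further reading that was looked up after the other values were seen. Of 226 heavy, κ and λ variable segments with a row, 114 had at least 1 count in triple combination replicate 1, from 477 counts in all, namely 43 heavy, 68 κ and 3 λ segments. The most counted of them, Igkv10-96, took 23 counts or 4.82% of the total. In triple combination replicate 2, 29 segments had a count, from 70 counts, and the remaining 13 tumors had 0 to 14 segments from 0 to 28 counts. Segments are near copies of each other, so their assignment is uncertain, and the number detected depends on the counts available.

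**Figure D2:**
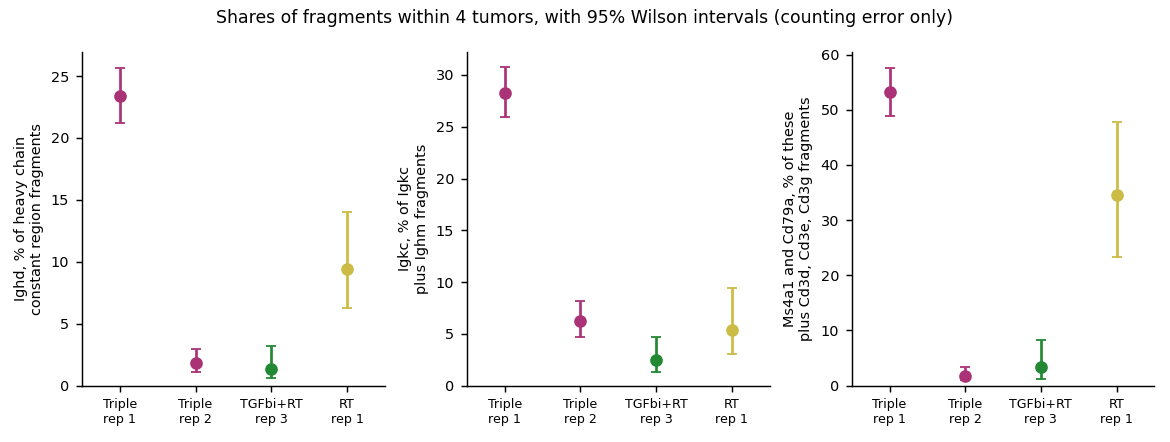
Shares of counts within the 4 tumors that had over 200 heavy chain constant region counts, in percent, with 95% Wilson intervals for counting error. Triple combination replicate 1 is highest in all 3 panels (Ighd 23.4%, Igkc 28.3%, Ms4a1 and Cd79a against CD3 genes 53.3%), and RT replicate 1 is second for Ighd and for Ms4a1 with Cd79a.

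The signalling pair differed in how widely it was counted. Cd79a (Entrez 12518, 5 exons on chromosome 7 from 24897511 to 24902197, plus strand) had 4, 3 and 2 counts in TGFbi tumors, 5, 1 and 0 in RT tumors, 7, 1 and 2 in TGFbi+RT tumors, and 162, 3 and 2 in triple combination tumors, against 1, 4 and 1 in Sham tumors. The single high tumor held 79.8% of its summed CPM, 10.8 CPM, which was 20.7 times the second. Cd79b (Entrez 15985, 6 exons on chromosome 11 from 106311341 to 106314529, minus strand) had 0.879, 1.44 and 1.21 CPM in TGFbi tumors, 2.06, 1.63 and 1.05 in RT tumors, 2.38, 0.550 and 1.19 in TGFbi+RT tumors, and 10.1, 2.72 and 0.422 in triple combination tumors, against 1.13, 0.327 and 1.94 CPM in Sham tumors. Cd79b was counted in all 15 tumors at up to 2.72 CPM outside the leading tumor, which held 34.9% of its summed CPM. Outside the leading tumor, Cd79a did not pass 0.520 CPM.

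The surface markers Ms4a1, Cr2 and Fcer2a also peaked in triple combination replicate 1. Ms4a1 (Entrez 12482, 7 exons on chromosome 19 from 11250603 to 11266151, minus strand) had 14 counts in RT replicate 1 and 100, 6 and 1 in the triple combination tumors, against 2, 0 and 1 in Sham tumors. The other 8 tumors had 0 to 2. Cr2 (Entrez 12902, 19 exons on chromosome 1 from 195136811 to 195176715, minus strand) had 22 counts in RT replicate 1, 23 in TGFbi+RT replicate 3 and 208, 9 and 3 in the triple combination tumors, against 9, 1 and 5 in Sham tumors, and the other 7 tumors had 3 to 10. Fcer2a (Entrez 14128, 14 exons on chromosome 8 from 3681737 to 3694174, minus strand) had 22 counts in RT replicate 1 and 192, 15 and 7 in the triple combination tumors, against 14, 3 and 14 in Sham tumors, and the other 8 tumors had 4 to 12. The leading tumor stood 7.64 times above the second for Ms4a1, 7.08 times for Cr2 and 9.33 times for Fcer2a.

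Glycam1 (Entrez 14663, 4 exons on chromosome 15 from 103562762 to 103565078, minus strand) was the most unevenly spread of the 9. It had 0 counts in all TGFbi and TGFbi+RT tumors, 13, 0 and 0 in the RT tumors and 420, 1 and 0 in the triple combination tumors, against 0, 0 and 0 in the Sham tumors. The leading tumor, at 28.0 CPM, held 97.0% of the summed CPM, and RT replicate 1 was second at 0.810 CPM. Floors of 3 counts in the 12 tumors at 0 were 0.179 to 0.264 CPM. Of the other milk protein genes, Csn3 had 86 counts in triple combination replicate 1, below the 427 of TGFbi+RT replicate 3 and the 367 of RT replicate 3. Csn2 had 2 counts there and 120 in TGFbi+RT replicate 3, while Wap had 2 and Lalba 6 there. TGFbi+RT replicate 3, highest for both Csn2 and Csn3, had 0 counts of Glycam1. Csn1s1 did not follow that order, on few counts. It had 13 counts in triple combination replicate 2, which had 1 of Glycam1, and 9 in RT replicate 1, which had 13 of Glycam1. In triple combination replicate 1, which had 420 of Glycam1, it had 6.

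RT replicate 1 followed for 4 of the 9 genes when triple combination replicate 1 was set aside (Ighd, Ms4a1, Fcer2a and Glycam1). Triple combination replicate 2 then led 3 (Ighm, Igkc and Cd79b), TGFbi+RT replicate 1 led Cd79a and TGFbi+RT replicate 3 led Cr2. No tumor then led more than 4.

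Genes beyond the 9 were also highest in the same tumor. Of all genes with at least 30 counts, 36 (0.202%) were at least 2-fold higher in triple combination replicate 1 than in any other tumor, and 8 of these are among the 9 described here. Of the other 28, 18 are on the lists used here and 10 are on none, among them Ccr6, a chemokine receptor, and Cacna1i, Shisa3, Scn4a, Naip1 and Slc16a5. The lists were drawn up with earlier results of these tumors known, so the overlap is not independent. By Pearson r over the 15 tumors, the genes whose log2 CPM was most like the mean of the 9, among 17064 genes, included Pax5 (0.955), Blk (0.95), Iglc3 (0.937), Ccr6 (0.932), Iglc2 (0.930), Fcmr (0.930), Ighg1 (0.928), Ccl21a (0.912) and Cxcl13 (0.900). Spearman rho was 0.567 to 0.919. Without the leading tumor, r was 0.543 to 0.858 over the other 14, so 1 tumor carries part of the likeness, and all points share library depth. Pax5 is the transcription factor that maintains B cell identity. Iglc2 and Iglc3 are near-identical copies whose counts could be split either way.

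Of 26 other B cell genes, 16 were highest in triple combination replicate 1. Pax5 had 51 counts in the leading tumor and at most 3 in any other. Fcmr, the receptor for IgM, had 106 there and at most 7 elsewhere. Cxcr5, the receptor for CXCL13, had 93, 22 and 8 counts in the triple combination tumors, against 11, 8 and 8 in Sham tumors. The 4 most abundant of the list were less restricted. Pou2af1 had 244 counts or more in every tumor, Ralgps2 289 or more and Ly6d 39 or more, and Cd180 was highest in triple combination replicate 2 with 827 counts against 171 in replicate 1. Cd22 (874 counts in replicate 2, 326 in replicate 1), Cd72 and Cd37 were also highest in replicate 2, which had 3 counts of Cd79a. These names were chosen after their values were seen.

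T cell transcripts did not follow the same order. By summed level, triple combination replicates 1 and 2 and TGFbi+RT replicate 3 were nonetheless the highest tumors for both sets. None of 17 T cell markers was highest in triple combination replicate 1. Their summed level was 112 CPM in TGFbi+RT replicate 3 and 118, 234 and 17.4 CPM in the triple combination tumors, against 17.1, 25.0 and 15.6 CPM in Sham tumors. Cd3e had 138 counts in triple combination replicate 1 and 328 in replicate 2. The most abundant of the list were Lck (468 and 580 counts), Cd4 (192 and 578), Cd28 (63 and 187) and Cd3e in replicates 1 and 2 of the triple combination. Counts of Ms4a1 and Cd79a made up 53.3% of these plus the CD3 genes Cd3d, Cd3e and Cd3g in triple combination replicate 1 (262 of 492, 48.8 to 57.6%), against 1.82% in replicate 2 (9 of 495, 0.959 to 3.42%), 3.31% in TGFbi+RT replicate 3 (4 of 121, 1.29 to 8.19%) and 34.5% in RT replicate 1 (19 of 55, 23.4 to 47.8%). The Sham tumors had 2 to 4 counts over these genes, too few for a share.

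**Figure D3:**
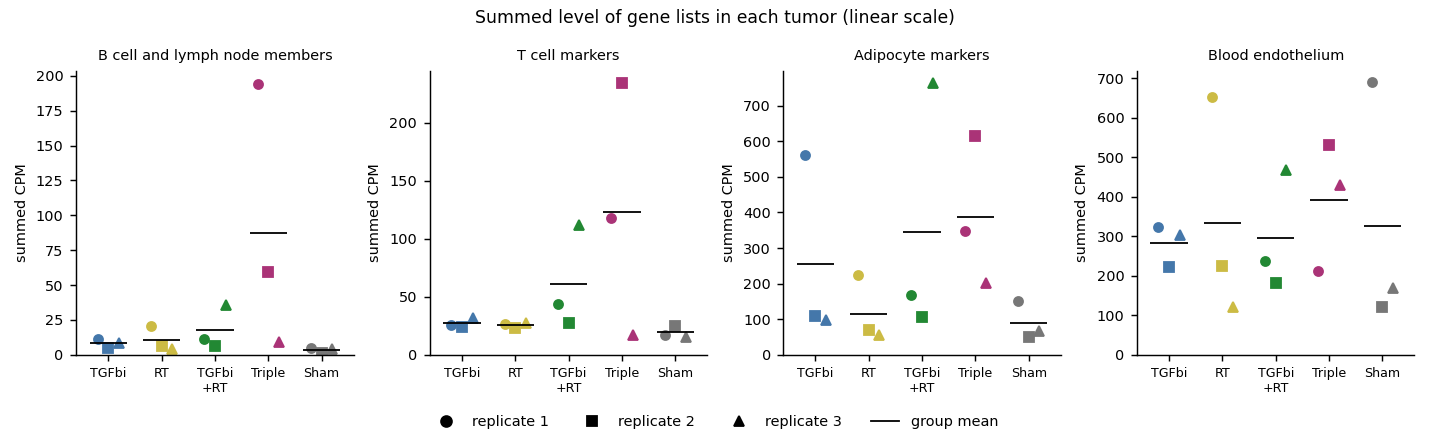
Summed CPM of the 9 genes and of T cell, adipocyte and blood endothelial marker lists in each tumor, on linear scales, with a line at each group mean. Triple combination replicate 1 is highest for the 9 genes (194 CPM), ranked 2 of 15 for T cell markers (118 CPM against 234 CPM in replicate 2), 4 for adipocyte markers (349 CPM) and 11 for blood endothelium (213 CPM).

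Some markers of lymph node vessels and stroma also had their maximum in triple combination replicate 1. Among 14 high endothelial venule genes, 4 were highest there. Besides Glycam1 these were Chst4, a sulphotransferase, with 16 counts there and 0 in all other tumors, Madcam1, an integrin ligand, with 12 counts and at most 5 elsewhere, and Podxl by a margin of 1.02 times. The more general genes of the list, Podxl, Ltbr, Gcnt1 and Cd34, were counted in every tumor, with Cd34 at 300 counts in the leading tumor and 982 in Sham replicate 1. Ackr1, Selp and Sele, which mark venules in many tissues, were not highest there, with Selp at 21 counts against 97 in RT replicate 1.

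Of 13 genes of lymph node stroma and follicles, 5 were highest in triple combination replicate 1. Cxcl13, the B cell follicle chemokine, had 213, 38 and 4 counts in the triple combination tumors, against 0, 0 and 5 in Sham tumors. Ccl19 had 31, 2 and 0 counts, against 0 in each Sham tumor. Ccl21a had 174 counts and Ccl21b 54 in the leading tumor, and the second highest was 11 counts of Ccl21a in RT replicate 1; these are near-identical copies, so the split between them is uncertain. The last of the 5 was Tnfsf11, with 17 counts. The abundant genes of the list were not highest there: Mfge8 had 2093, Cxcl12 546, Fcgr2b 406 and Ltb 131 counts in triple combination replicate 1, against 2819, 4036, 2600 and 218 in replicate 2.

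**Figure D4:**
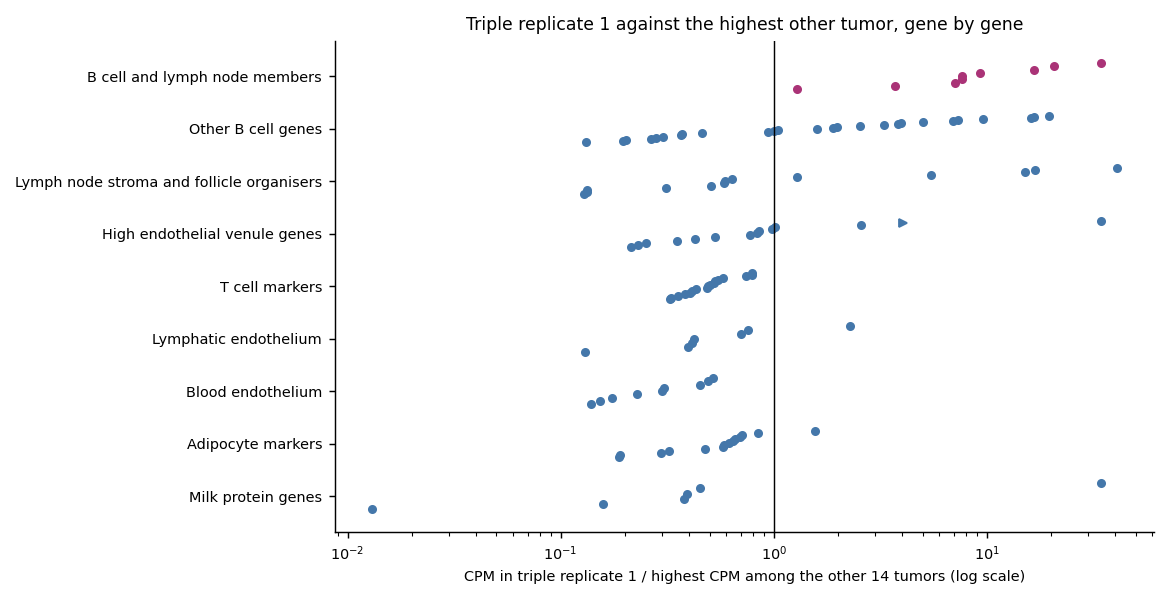
For each gene of 9 lists, the CPM in triple combination replicate 1 divided by the highest CPM among the other 14 tumors, on a log axis. Points right of 1 are highest in that tumor, the triangle is a lower bound for a gene at 0 elsewhere (Chst4), and Glycam1 appears in 3 lists. All 9 genes described here lie right of 1 (1.29 to 34.5 times), as do 16 of 26 other B cell genes and none of 17 T cell markers.

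By summed level the 14 other lists did not peak in that tumor. The other B cell genes ranked 2 of 15 there (278 CPM, against 375 CPM in triple combination replicate 2), the high endothelial venule genes 4 (277 against 289.9 CPM in replicate 2) and the stroma and follicle genes 8 (248 against 673 CPM in replicate 2). None of 9 blood endothelial genes was highest there, and the summed level of the list (Pecam1, Cdh5, Kdr and Tie1 most abundant) ranked 11 of 15 with 213 CPM. Lymphatic endothelial genes were led there for 1 of 7 (Mmrn1, 18 counts), with Lyve1 at 223 counts against 1358 in triple combination replicate 3. Adipocyte markers (Lpl, Fabp4, Thrsp and Cfd most abundant) summed to 349 CPM, against 763 CPM in TGFbi+RT replicate 3, with 1 of 14 highest in the leading tumor. Skeletal muscle genes summed to 2.00 CPM. None of 9 luminal epithelial genes, 8 plasmacytoid dendritic cell genes or 9 germinal centre genes was highest there. Of 15 plasma cell and class switched genes, 7 were highest there, led by Ighg1 and by Jchain with 61 counts, while the abundant Txndc5, Xbp1, Sdc1 and Prdm1 were not. Among 12 genes of naive and recirculating lymphocytes, 3 were highest there. The part of lymph node tissue, of infiltrating B cells or of any other source in these levels was not tested.

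By library name, triple combination replicate 1 shares a prefix with all Sham, TGFbi and TGFbi+RT tumors, and the other 2 triple combination tumors share one with the RT tumors. Of the first set, TGFbi replicate 3 and TGFbi+RT replicate 3 are marked as resubmitted, and the prefix is absent from their column names. Within the first prefix the triple combination is thus 1 tumor, at 21.7 CPM of Ighd and 28.0 CPM of Glycam1, against at most 0.477 and 0 CPM in the 3 Sham tumors. Within the second there is no Sham tumor, so RT against Sham cannot be told apart from the prefix. The same holds for TGFbi+RT against RT and for the interaction of TGFbi and RT. With the prefix as a term in the edgeR fit, only the triple combination tumors can inform that term. The contrast of the triple combination with Sham then sets replicate 1 alone against the Sham tumors. Its log2 fold changes were 3.13 for Cd79b to 7.12 for Igkc, and they rest on that 1 tumor. What the prefix stands for is not given.

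Treatment groups were then compared with edgeR's quasi-likelihood test on all 15 tumors, with Benjamini-Hochberg adjustment over the 16017 genes kept by the low-count filter. The filter kept 6 of the 9 genes (Ighm, Igkc, Ighd, Cd79b, Cr2 and Fcer2a) and removed Cd79a, Ms4a1 and Glycam1, which reached enough counts in too few tumors. None of the 6 passed an adjusted p of 0.05 in any of 8 contrasts or in the F test over the 5 groups. Over all genes the same test called 0.00624% (1 gene) between TGFbi and Sham, and 0% in each other contrast and in the F test. With no low-count filter none of the 9 passed, where 0.00441% of 22688 genes did between TGFbi and Sham and 0% elsewhere.

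In the triple combination against Sham, the 6 genes had positive log2 fold changes, with a median of 4.49 where the median of all genes was -0.00. Ighm averaged 40.8 ± 29.8 CPM in triple combination tumors and 0.725 ± 0.509 CPM in Sham tumors (SD, n = 3 each), a log2 fold change of 5.77 ± 1.16 (SE, edgeR adjusted p = 0.194). Igkc differed by 5.73 ± 1.53 (edgeR adjusted p = 0.194) and Ighd by 5.09 ± 1.66 (edgeR adjusted p = 0.222). The log2 fold change was 3.89 ± 1.30 for Cr2, 2.83 ± 1.01 for Fcer2a and 1.95 ± 0.88 for Cd79b, with edgeR adjusted p of 0.225, 0.239 and 0.327. All 6 had an unadjusted p under 0.05, as did 14.9% of all genes tested. The genes and lists were chosen with earlier results of these tumors known. Setting them beside all genes, here and in the contrasts below, is thus not a test. With the triple combination and Sham fitted alone, the low-count filter kept only 3 of the 6 (Cd79b, Fcer2a and Ighm). Ighm was the gene of the 6 whose triple combination tumors all lay above all Sham tumors, an order that 8.67% of 22688 genes had.

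The differences of 4 of the other 5 genes rested on triple combination replicate 1. Without it, the log2 fold change against Sham was 1.43 for Ighd, 0.45 for Cd79b, 0.41 for Cr2 and 0.25 for Fcer2a, while Igkc was at 3.24 and Ighm at 5.25, all with edgeR adjusted p of 0.126 or above. Mean levels in the remaining 2 triple combination tumors were 0.594 CPM for Ighd and 0.433 CPM for Cr2, against 0.208 and 0.314 CPM in Sham tumors.

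**Figure D5:**
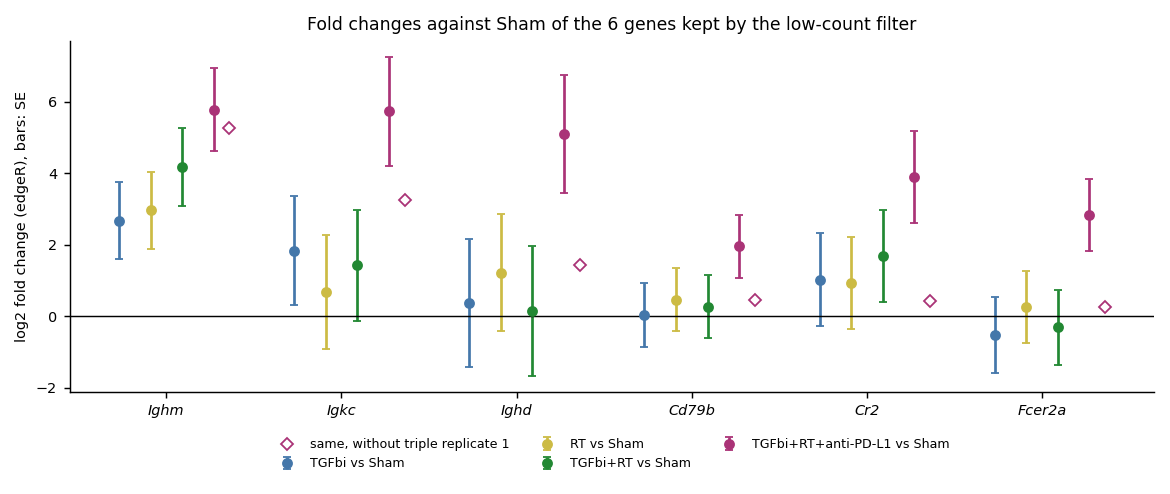
Log2 fold changes against Sham from edgeR for the 6 genes kept by the filter, with bars for the SE, and open diamonds for the triple combination without replicate 1. Ighm stays at 5.25 without that tumor, while Ighd, Cd79b, Cr2 and Fcer2a come down to between 0.25 and 1.43.

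DESeq2, run as an alternative, called some of these genes. Between the triple combination and Sham it called Ighm (adjusted p = 3.16e-06), Igkc (0.00391) and Ighd (0.0263), where it called 3.88% of all genes, and Cr2 had no adjusted p because of an outlying count. It gave an adjusted p for 5 of the 9 genes, since Cd79a, Ms4a1 and Glycam1 were removed by the filter. Without triple combination replicate 1, where 6 had one, DESeq2 called Ighm alone of these (log2 fold change 5.31, adjusted p = 0.000214), where it called 6.28% of all genes. Between TGFbi+RT and Sham it called Ighm (adjusted p = 0.00190), where it called 3.18% of all genes, and still called it without that tumor (adjusted p = 0.00221), where it called 3.27% of all genes. In its test over the 5 groups it called Ighm, Igkc, Ighd and Fcer2a, where it called 4.11% of all genes, and Ighm alone without triple combination replicate 1, where it called 6.28% of all genes. In every other comparison of the 15 tumors DESeq2 called none of the 5 genes it tested, with a share of all genes called of 0.863% for TGFbi against Sham, 0.395% for TGFbi+RT against RT, 0.0188% for TGFbi+RT against TGFbi and for the interaction of TGFbi and RT, and 0.00627% for RT against Sham and for the triple combination against TGFbi+RT.

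Ighm was also the gene that stood out in the other treatments. Its log2 fold change against Sham was 2.67 ± 1.07 in TGFbi tumors, 2.96 ± 1.07 in RT tumors and 4.17 ± 1.10 in TGFbi+RT tumors (edgeR adjusted p = 0.523, 0.999 and 0.207), with no overlap with Sham in any of these groups. At an unadjusted p under 0.05, Ighm was the 1 gene of the 6 in each of these groups, as were 8.48% of all genes in TGFbi, 4.2% in RT and 15% in TGFbi+RT. An order with the treated group above all Sham tumors was found for 6.21% of genes in TGFbi, 5.02% in RT and 9.75% in TGFbi+RT. Igkc and Cr2 in TGFbi tumors and Cr2 in TGFbi+RT tumors also lay above all Sham tumors, on counts of 6 to 23. The median log2 fold change of the 6 genes was 0.69 in TGFbi, 0.80 in RT and 0.84 in TGFbi+RT tumors, where the median of all genes was -0.01, 0.01 and -0.01. These comparisons share the 3 Sham tumors, and RT against Sham cannot be told apart from the library prefix.

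Adding anti-PD-L1 to TGFbi+RT gave positive log2 fold changes for all 6 genes, with a median of 2.68 (0.03 over all genes). The largest were 4.94 ± 1.66 for Ighd and 4.31 ± 1.39 for Igkc, and Ighm was at 1.60 ± 0.94, each with an edgeR adjusted p of 1.00. At an unadjusted p under 0.05 there were 3 of the 6 (Igkc, Ighd and Fcer2a), against 1.99% of all genes. Without triple combination replicate 1, the log2 fold change was 1.83 ± 1.22 for Igkc, 1.29 ± 1.39 for Ighd, 0.57 ± 0.75 for Fcer2a and 0.20 ± 0.81 for Cd79b, Ighm was at 1.09 ± 1.02, and Cr2 turned to -1.26 ± 0.93. The median was then 0.83 (0.00 over all genes), and none of the 6 had an unadjusted p under 0.05, where 3.3% of all genes did. Mean levels of Cr2 were then 0.433 CPM in the 2 triple combination tumors and 1.06 CPM in TGFbi+RT tumors. Between TGFbi+RT and RT, between TGFbi+RT and TGFbi and for the interaction, none of the 6 had an unadjusted p under 0.05, where 9.62%, 6.06% and 3.8% of all genes did.

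By the same edgeR test, none of the 14 other lists had a gene past an adjusted p of 0.05 in any of the 8 contrasts. In the triple combination against Sham, 12 of 15 tested other B cell genes had a log2 fold change above 0 (median 2.74). Of the 15, 9 had an unadjusted p under 0.05 and DESeq2 called 7 higher. Among those 7, Bank1 and Spib were highest in triple combination replicate 1. The others, Cd180, Pou2f2, Cd22, Cd37 and Btk, were highest in replicate 2, which had 3 counts of Cd79a. Over all genes tested, 49.5% were above 0, 14.9% had an unadjusted p under 0.05 and DESeq2 called 3.88% in either direction. For T cell markers these numbers were 17 of 17 (median 5.80), 17, and 14 called by DESeq2. Adipocyte markers (12 of 13 above 0, median 4.93, 10 with an unadjusted p under 0.05 and 8 called by DESeq2) and plasmacytoid dendritic cell genes (7 of 7, median 2.75, 5 and 3) also lay mostly above 0. For high endothelial venule genes, 8 of 9 tested were above 0 (median 0.43), with 2 called by DESeq2 (Selp and Enpp2), and Chst4 and Madcam1 were removed by the filter. For stroma and follicle genes, 9 of 9 tested were above 0 (median 2.38), with 1 called by DESeq2, Ltb.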

How the data were processed

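The authors deposited raw counts per Entrez gene for 16 libraries. Per the submitters' processing notes the genome build was GRCm38, and per the file headers the alignments came from Subread; how reads were counted, with or without strand, is not given in the sources used here. Exon positions and gene lengths over all exons, the other values used, come from the deposited annotation. Identifiers were joined to symbols (25275 of 27179 matched).

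Counts were analysed with edgeR 4.0.16 in R 4.3.3 (default low-count filter on the 5 groups, TMM, quasi-likelihood fit with 1 mean per group, 10 residual degrees of freedom, common biological coefficient of variation 0.364) and with DESeq2 1.42.0 as an alternative; the test scripts were tested on simulated data. The p-values of the main fits weigh a difference against the spread between tumors of the same group, pooled for each gene over all 5 groups. The spread among the triple combination tumors thus enters every contrast. Whether replicate numbers pair tumors across groups was not decided, and the main tests did not use them. The 9 genes and all lists were chosen with earlier results of these data known, so nothing here is independent of them. By rule, the 9 genes, the 4 most abundant genes of each other list and the 10 genes most like the 9 were named, except that some genes under the rule are not reported here; other names were chosen after their values were seen. Alternatives tried were other scalings, filters and tests, groups fitted alone, a replicate block and leaving tumors out.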

Additional observations from a re-analysis of the deposited data

Results flagged for a closer look

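The internal reference library, which entered no comparison, held 9003730 counts. It had 3.44 CPM of Ighm, 1.78 CPM of Cr2 and 1.78 CPM of Fcer2a, each above the highest Sham tumor (1.31, 0.537 and 0.907 CPM), and its counts were 31, 16 and 16. It had 0 counts of Epcam, 0 of Ighd, 0 of Glycam1 and 1 of Igkc. Its labels name it an internal reference and a mouse control and give mammary carcinoma as its source. The 0 counts of Epcam are 1 gene in 1 library, and neither the source nor these values were tested.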

How the results depend on the processing

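Triple combination replicate 1 led all 9 genes under plain library totals, raw counts, relative log expression factors, CPM per kilobase, a total without the most abundant gene and without any other tumor; over single tumors left out, the number led was 4 to 9, with 4 (then by RT replicate 1) once that tumor itself was out. In edgeR none of the 9 genes was called under any alternative that tested it (all 9 with no low-count filter, 2 to 8 under the others). DESeq2, which gave an adjusted p for 5 of them, called 3 between the triple combination and Sham, 1 between TGFbi+RT and Sham and 4 over the 5 groups, and 1 in each of these 3 comparisons with triple combination replicate 1 left out, an alternative added after seeing the data. For all genes, DESeq2 called 127 between TGFbi and Sham, 1 between RT and Sham, 488 between TGFbi+RT and Sham, 619 between the triple combination and Sham, 63 between TGFbi+RT and RT, 3 between TGFbi+RT and TGFbi, 1 between the triple combination and TGFbi+RT, 3 for the interaction and 656 over the 5 groups, against 1 in edgeR for TGFbi and Sham and 0 elsewhere; the cause was not tested. Without triple combination replicate 1 DESeq2 called 119, 1, 532, 1021, 73, 19, 0, 5 and 1021 in the same order. In edgeR, leaving out single tumors gave 0 to 5 calls for TGFbi against Sham, 0 to 4 for the triple combination against Sham (4 without its replicate 3) and 0 to 1 for RT against Sham and over the 5 groups. Signs of small fold changes against Sham turned when single tumors were left out. In TGFbi the ranges were -1.34 to 1.83 for Ighd and -0.38 to 0.65 for Cd79b. In RT they were -1.24 to 1.34 for Igkc, -1.01 to 2.68 for Ighd, -0.42 to 1.53 for Cr2 and -0.38 to 0.51 for Fcer2a, each negative without RT replicate 1. In TGFbi+RT they were -0.49 to 1.61 for Ighd and -0.40 to 0.86 for Cd79b, and Ighd was at -0.48 without the 2 resubmitted libraries and at -0.49 without TGFbi+RT replicate 3 and triple combination replicate 2 together, the last added after seeing the data. Over 30 pairs of tumors with the same replicate number, deviations from the group means had r of -0.579 to 0.671, with 13 pairs above 0.1. Pairs with different numbers were not summarised beside them, so these values cannot decide whether the numbers pair tumors. With a replicate block, 0 of the 6 genes tested and 0 of all genes were called in every comparison. Cd79a, Ms4a1 and Glycam1 had at most 14 counts outside 1 tumor, which limits the comparison of the other 14. RT replicate 1 was above the floor of 3 counts for Ms4a1 (14), Glycam1 (13) and Cd79a (5). Cd79a also passed it in TGFbi+RT replicate 1 (7), TGFbi replicate 1 (4) and Sham replicate 2 (4), and Ms4a1 in triple combination replicate 2 (6).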

Other observations

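A share of the summed level of a gene, taken by 1 tumor, was computed for 17039 genes with at least 50 counts over the tumors. Triple combination replicate 1 took 80% or more for 7 genes, which was the highest number of any tumor, followed by 5 in TGFbi+RT replicate 3, 4 in TGFbi replicate 3 and 1 each in RT replicate 1 and triple combination replicate 3. The 7 were Glycam1 (97.0%), Ccl21b (93.9%), Ccl21a (93.8%), Gm13304 (93.1%), an identifier with no symbol (91.7%), Pax5 (86.4%) and Ighd (81.5%). As near-identical copies, Ccl21a and Ccl21b may not be separate readings among the 7.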
